A study of Mus musculus with 40 samples.

Results

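Voltage-gated calcium channel subunits were measured by RNA-seq in the brains of mice colonized with human gut microbiota. The 10 genes described here are 8 alpha1 subunits (Cacna1a, Cacna1b, Cacna1c, Cacna1d, Cacna1e, Cacna1g, Cacna1h and Cacna1i), the alpha2delta subunit Cacna2d1 and the beta subunit Cacnb4. They were taken by gene symbol, through their Ensembl identifiers, from tables of 47643 genes, and all 10 were found. Every mouse was a wild-type Swiss Webster female that had been raised germ-free, was colonized by gavage with the stool of a child with refractory epilepsy, and was fed a control chow, so the diet groups differ in the donor's diet and not in that of the mice. Stool of each of 10 donors had been collected before the donor started a clinical ketogenic diet (pre-KD) and again while on it (post-KD), which gave 20 cohorts of recipients, 1 per stool sample. The hippocampus and the frontal cortex were taken from each cohort a few days after colonization, and each of the 40 libraries (10 per region and condition) was made from the pooled tissue of several mice, so the spread between mice of a cohort is not seen. Replicates are numbered by donor. Swiss Webster is an outbred stock.

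Each high-voltage-activated channel is built around an alpha1 subunit, which forms the pore and carries the voltage sensor, joined by a beta subunit inside the cell and an alpha2delta subunit outside it, both of which bring the channel to the membrane and tune its gating. The P/Q-, N- and R-type channels admit the calcium that triggers transmitter release, L-type channels sit mainly on cell bodies and dendrites and couple activity to gene expression, and the low-voltage-activated T-type channels open near rest and drive burst firing. In epilepsy research the family is known for mutations of Cacna1a and Cacnb4 in mice with absence seizures, for T-type currents in thalamic rhythms, and for alpha2delta as the binding site of gabapentin.

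Libraries held between 1140756 and 2095352 counts, and the single gene Gm42418 took 8.63% to 18.02% of them. At this depth the members had between 1 and 1130 counts in a library, and none was at 0. Regional markers followed the labels in part. The summed level of 10 hippocampal marker genes was 878 to 1396 CPM (counts scaled to library size with TMM normalization) in the hippocampus and 479 to 869 in the frontal cortex. Most of that sum was Zbtb20, with means of 785 and 471 CPM. After adjustment in edgeR 6 of the 10 were higher in the hippocampus, where 2.85% of all genes were called. Of 8 cortical markers 2 (Rorb and Lamp5) were lower in the hippocampus after adjustment in edgeR and 1, Fezf2, was higher there (log2 fold change 0.88, SE 0.22). In bulk tissue, fewer cells of a type and less RNA per cell cannot be told apart.

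The most abundant members per length were the auxiliary subunits and Cacna1a. On the scale of CPM per kb of summed exon length, Cacnb4 stood at 36.0 ± 10.3 (SD, n = 20) in the hippocampus and 45.8 ± 8.66 in the cortex. Cacna2d1 followed at 29.8 ± 5.48 and 28.4 ± 2.78. Cacna1a, the pore of P/Q-type channels, came next at 21.7 ± 5.51 and 21.9 ± 4.70, and on this scale it was above every other alpha1 subunit in the mean of both regions. The R-type pore Cacna1e stood at 10.7 ± 2.18 and 8.86 ± 2.11, the N-type pore Cacna1b at 9.11 ± 4.04 and 8.26 ± 1.96, and the L-type pore Cacna1d at 5.65 ± 2.23 and 7.41 ± 1.73. The 3 T-type pores and the second L-type pore, Cacna1c, lay lowest, between 1.76 (Cacna1h, frontal cortex) and 3.22 (Cacna1i, frontal cortex). Division by length presumes reads from whole transcripts. The labels and methods name such a kit (TruSeq) for these libraries, but the study's reagents also include one that reads transcript ends (QuantSeq FWD), and if that kit had been used the levels would not scale with length. In CPM without length, Cacna1e (269 ± 55.0, n = 20) was above Cacna1a (248 ± 63.0) in the hippocampal mean, with Cacna1a the higher in 6 of 20 libraries, and below it in the frontal cortex (224 ± 53.2 against 251 ± 53.7, with Cacna1a the higher in 16 of 20). On both scales the means of Cacnb4 and Cacna2d1 came first, then those of Cacna1a and Cacna1e in either order, and the 3 T-type genes and Cacna1c had the 4 lowest.

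**Figure D1:**
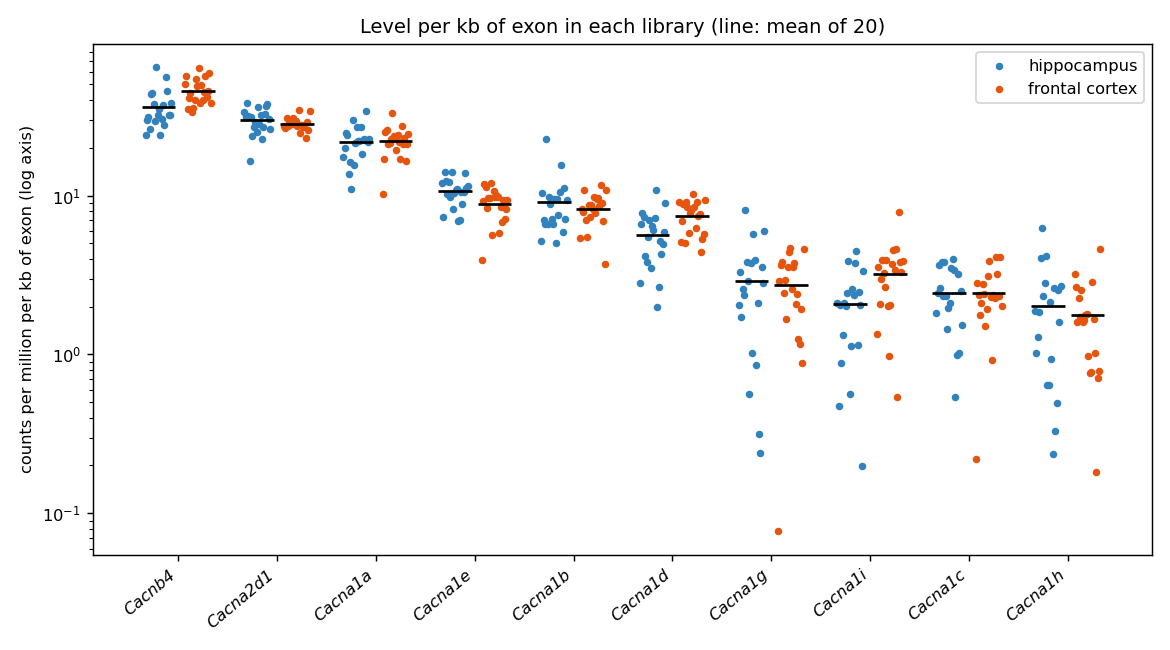
Level of each subunit in CPM per kb of exon (log axis), 1 point per library, hippocampus and frontal cortex, with the mean of 20 libraries as a line. The means of Cacnb4, Cacna2d1 and Cacna1a lie above those of the others in both regions, with overlapping points, and the points of the 4 lowest genes overlap.

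Several neighbours in that order were closer than their spread. For the hippocampus the gap from Cacnb4 to Cacna2d1 was 6.16 ± 12.2 CPM per kb (mean and SD over 20 libraries), with Cacnb4 higher in 12 of 20, while the cortical gap was 17.4 ± 10.1 with Cacnb4 higher in 20 of 20. The steps from Cacna2d1 to Cacna1a and from Cacna1a to Cacna1e exceeded their SD in both regions, and Cacna1a was above Cacna1e in 20 of 20 libraries of each. Cacna1e and Cacna1b were within their SD of each other in both regions, as were Cacna1b and Cacna1d, and so were all neighbours among Cacna1g, Cacna1c, Cacna1i and Cacna1h. With the longest annotated transcript as the length, Cacna2d1 (49.8 ± 9.15) came before Cacnb4 (39.2 ± 11.3) in the hippocampus, so the order of these genes rests on the length used.

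The question of the design was whether brain expression differed after transfer of post-KD against pre-KD microbiota, and for these subunits it was asked in each region with 10 libraries against 10. In the hippocampus 0 of 10 members passed an adjusted p of 0.05 (edgeR quasi-likelihood test, Benjamini-Hochberg over 17529 genes), where 0.00570% of all genes did, and 0 of 10 reached an unadjusted p of 0.05, where 10.1% of all genes did. DESeq2 and limma-voom also called 0 of 10 after adjustment, and without adjustment DESeq2 had 1, Cacna1a, where 2.71% of all genes passed, and limma-voom 0, where 5.49% did. In the frontal cortex the adjusted count was again 0 of 10 (edgeR, 17873 genes, 0.00560% of all genes called) and the count without adjustment 0 of 10 (9.68% of all genes), and DESeq2 and limma-voom gave 0 after adjustment and 0 without, where 3.48% and 5.99% of all genes passed without adjustment. The share of all genes under an unadjusted p of 0.05 in edgeR depended on the filter. With filterByExpr, which drops more genes of few counts, it was 2.32% of 9509 genes in the hippocampus and 4.06% of 10033 in the frontal cortex. The median log2 fold change of the members was -0.01 in the hippocampus and -0.02 in the cortex, beside -0.01 and 0.01 for all genes tested. Positive values were seen for 5 members and negative ones for 5 in the hippocampus, and for 4 and 6 in the frontal cortex. For all 10 members the pre-KD and post-KD libraries overlapped in both regions. The share of all genes whose groups overlap was not counted, so this overlap is no trait of the members.

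**Figure D2:**
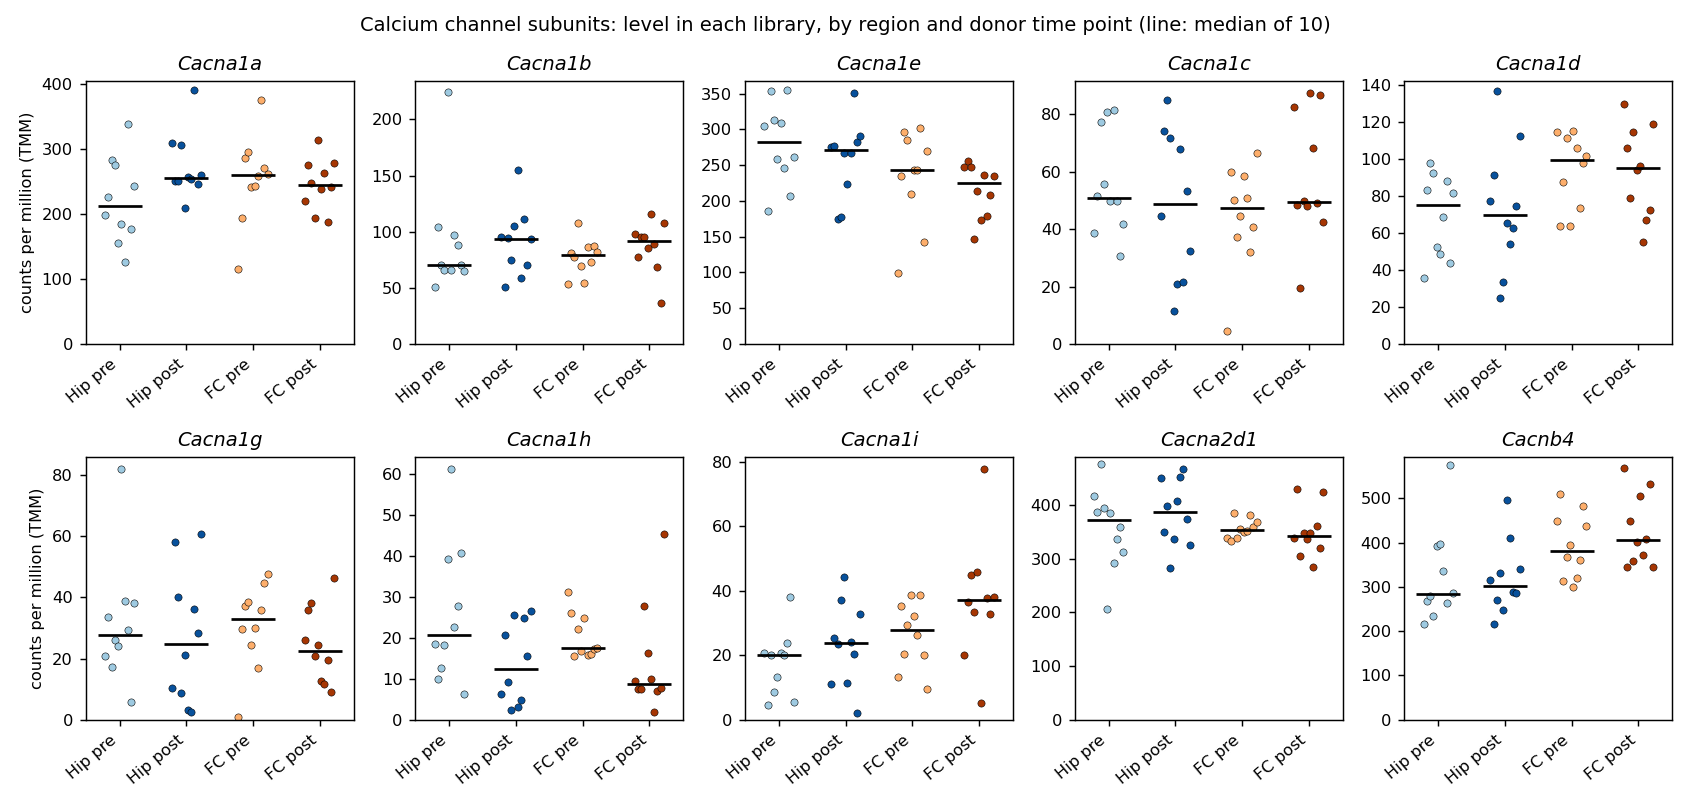
Level of each of the 10 subunits in CPM (TMM-normalized), 1 point per library, in pre-KD and post-KD hippocampus (Hip) and frontal cortex (FC), with the median of 10 libraries as a line. Pre-KD and post-KD points overlap for every gene. Over the libraries of each region the relative spread is widest for Cacna1g, Cacna1h and Cacna1i. In pre-KD frontal cortex alone that of Cacna1c exceeds those of Cacna1h and Cacna1i.

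Among the release channels, Cacna1a (ENSMUSG00000034656, chr8:84388440-84640246, plus strand, mm10) had the smallest p-value of the members in the hippocampus. Its lowest, median and highest levels there were 126, 212 and 339 CPM in pre-KD libraries and 209, 256 and 391 CPM in post-KD libraries. The post-KD library was above the pre-KD library of the same donor in 9 of 10 donors, with replicate 3 as the exception (283 CPM pre-KD, 252 post-KD). The log2 fold change was 0.30 (SE 0.16, 95% interval -0.02 to 0.62) with p = 0.0662 and an adjusted p of 0.585 in edgeR, ranging from 0.437 to 1.0 over 19 alternatives. With the donor as a replicate block the unadjusted p was 0.0451 in edgeR and 0.00440 in DESeq2, and neither passed after adjustment. In limma-voom, here with quality weights that count some libraries less, the log2 fold change was 0.15 (unadjusted p = 0.278). Cacna1a is among the hippocampal genes that the study selected on these same libraries, so this value is not independent evidence of its direction. In the frontal cortex the same gene ranged over 116, 261 and 376 CPM pre-KD and 188, 244 and 315 CPM post-KD, and the post-KD level was the higher in 5 of 10 donors. The log2 fold change there was -0.05 (SE 0.13, 95% interval -0.31 to 0.21).

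Cacna1b (ENSMUSG00000004113, chr2:24603887-24763152, minus strand), the pore of N-type channels, was measured at 51.1, 70.4 and 225 CPM in pre-KD and 50.3, 93.8 and 155 CPM in post-KD hippocampus (lowest, median, highest). The highest pre-KD value, of replicate 5, lay well above the next one at 104 CPM. The groups overlapped, and the log2 fold change was 0.00 (SE 0.24). Frontal cortical levels of Cacna1b were 53.9, 79.6 and 107 CPM pre-KD and 36.8, 91.9 and 116 CPM post-KD, with a log2 fold change of 0.17 (SE 0.19, p = 0.372 in edgeR's test across all genes).

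Cacna1e (ENSMUSG00000004110, chr1:154390731-154884501, minus strand), the R-type pore, spanned 185, 283 and 355 CPM in pre-KD and 174, 271 and 351 CPM in post-KD hippocampus. In the cortex it spanned 99.2, 244 and 302 CPM pre-KD and 147, 225 and 256 CPM post-KD. Both medians were the lower post-KD, by less than the spread: the log2 fold changes were -0.12 (SE 0.16) in the hippocampus and -0.12 (SE 0.14) in the cortex, and the post-KD library was the lower in 5 and 6 of 10 donors.

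The L-type pore Cacna1c (ENSMUSG00000051331, chr6:118587240-119196418, minus strand) forms the channel that couples calcium entry in dendrites to transcription. Its levels were 30.5, 50.7 and 81.4 CPM in pre-KD and 11.5, 48.8 and 85.0 CPM in post-KD hippocampus, with a log2 fold change of -0.21 (SE 0.32). Cortical levels of Cacna1c were 4.68, 47.3 and 66.5 CPM pre-KD and 19.4, 49.5 and 87.4 CPM post-KD, with a log2 fold change of 0.38 (SE 0.26, p = 0.152 in edgeR). The cortical groups had nearly the same median, and the pre-KD minimum was the library of replicate 1, with 6 counts. Without replicate 1 the cortical log2 fold change of Cacna1c was 0.17 (p = 0.470 in edgeR).

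Cacna1d (ENSMUSG00000015968, chr14:30039939-30491455, minus strand), the L-type pore that opens at lower voltages, ranged over 35.6, 75.1 and 97.9 CPM in pre-KD and 24.9, 69.9 and 137 CPM in post-KD hippocampus. In the cortex the values were 63.8, 99.8 and 115 CPM and 55.4, 95.2 and 130 CPM. Its log2 fold changes were 0.07 (SE 0.28) and -0.01 (SE 0.17), and the post-KD library was the higher in 6 and 5 of 10 donors. Of its summed exon length, 4.67% overlaps the exons of Chdh on the other strand.

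T-type genes had the fewest counts and the widest intervals. Cacna1g (ENSMUSG00000020866, chr11:94408391-94474198, minus strand), a T-type pore prominent in thalamic relay cells, was at 5.73, 27.8 and 81.9 CPM in pre-KD and 2.42, 24.9 and 60.6 CPM in post-KD hippocampus. The cortical levels of Cacna1g were 0.781, 32.9 and 47.7 CPM pre-KD and 8.91, 22.6 and 46.4 CPM post-KD. The log2 fold changes of -0.24 (SE 0.47) and -0.32 (SE 0.36) were within the spread between libraries, whose groups overlapped throughout.

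Cacna1h (ENSMUSG00000024112, chr17:25374285-25433783, minus strand), a T-type pore with rare variants known from childhood absence epilepsy, had the most negative estimate in both regions. Its hippocampal levels were 6.27, 20.6 and 61.2 CPM pre-KD and 2.32, 12.4 and 26.4 CPM post-KD, and the log2 fold change was -0.89 (SE 0.58, 95% interval -2.04 to 0.25, p = 0.127, adjusted p = 0.801 in edgeR). It ranged from -1.15 (without replicate 10) to -0.53 (without replicate 6) with 1 donor left out. In the cortex the levels were 15.7, 17.5 and 31.2 CPM pre-KD and 1.77, 8.64 and 45.3 CPM post-KD, with a log2 fold change of -0.53 (SE 0.45, p = 0.237 in edgeR), or -0.97 without replicate 10 and -0.40 without replicate 1. The post-KD library was below the pre-KD library of its donor in 8 of 10 donors in each region, and the regions come from the same cohorts. With the donor as a block the cortical estimate was -0.94 in edgeR (unadjusted p = 0.0744) and -0.93 in DESeq2 (unadjusted p = 0.0183, adjusted p = 0.473). The post-KD range of both regions began at or below 4 counts in a library, and 4 of 10 post-KD hippocampal libraries were below the lowest pre-KD one. In the cortex 7 of 10 were, while 2 were within the pre-KD range and 1 was above it. The coefficient of variation was 66.1% pre-KD and 70.9% post-KD in the hippocampus and 26.7% and 93.0% in the cortex, where counting alone gives 15.6%, 22.1%, 17.5% and 20.3%.

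Cacna1i (ENSMUSG00000022416, chr15:80287238-80398279, plus strand), the third T-type pore, had positive estimates in both regions. Hippocampal levels were 4.70, 20.1 and 38.2 CPM pre-KD and 1.94, 23.8 and 44.3 CPM post-KD, and the log2 fold change was 0.39 (SE 0.56), with 0.20 (without replicate 5) to 0.73 (without replicate 9) when 1 donor was left out. Cortical levels were 9.66, 27.9 and 38.7 CPM pre-KD and 5.34, 37.0 and 77.8 CPM post-KD, with the post-KD library the higher in 8 of 10 donors. The cortical log2 fold change was 0.49 (SE 0.32, 95% interval -0.15 to 1.13, p = 0.129, adjusted p = 0.778 in edgeR).

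The auxiliary subunits had the most counts and the narrowest intervals. Cacna2d1 (ENSMUSG00000040118, chr5:15934691-16374511, plus strand), the alpha2delta subunit bound by gabapentin, was at 206, 372 and 476 CPM in pre-KD and 283, 386 and 467 CPM in post-KD hippocampus, with a log2 fold change of 0.10 (SE 0.14, 95% interval -0.18 to 0.38). In the cortex it was at 332, 353 and 385 CPM pre-KD and 284, 342 and 429 CPM post-KD, with a log2 fold change of -0.03 (SE 0.11, 95% interval -0.24 to 0.18). The upper and lower bounds of the cortical interval correspond to 1.13-fold and 0.847-fold and form the narrowest of the 20 post-KD intervals.

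Cacnb4 (ENSMUSG00000017412, chr2:52428320-52676831, minus strand), the beta subunit whose loss causes the lethargic phenotype in mice, was at 215, 283 and 576 CPM in pre-KD and 217, 301 and 496 CPM in post-KD hippocampus. The log2 fold change was -0.03 (SE 0.16). In the frontal cortex it was at 301, 381 and 509 CPM pre-KD and 345, 405 and 568 CPM post-KD, and the log2 fold change was 0.12 (SE 0.11, 95% interval -0.10 to 0.34). The exons of A430018G15Rik on the other strand overlap 15.99% of the exon length of Cacnb4, and that gene had 58 counts over all 40 libraries.

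**Figure D3:**
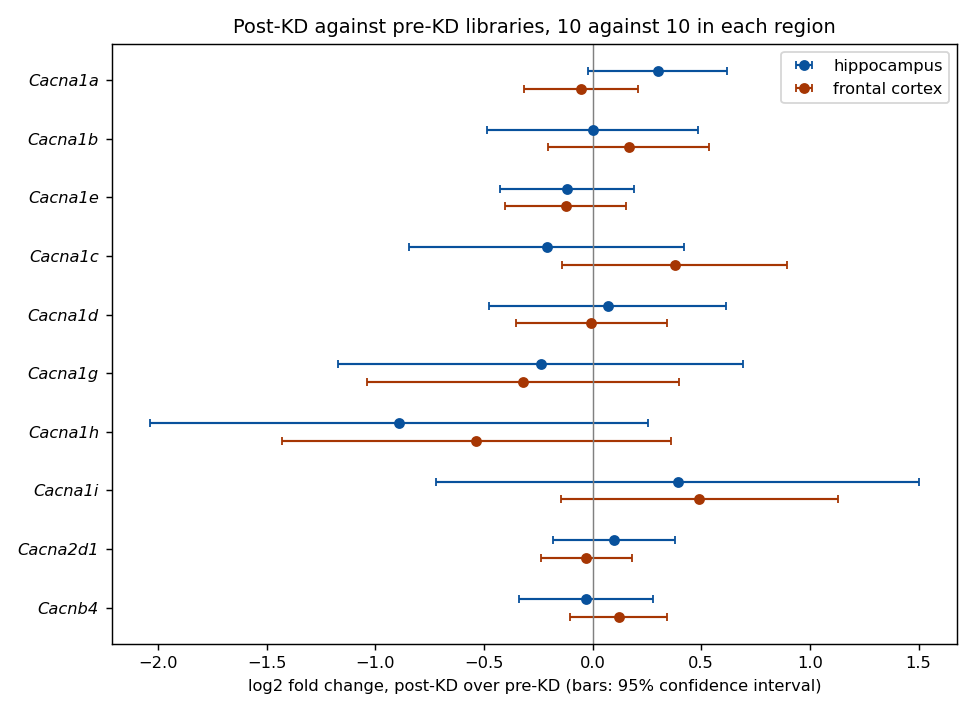
Log2 fold change of each subunit, post-KD over pre-KD, in the hippocampus and the frontal cortex (edgeR, 10 against 10 libraries), with 95% confidence intervals as bars. All 20 intervals include 0, and those of Cacna1g, Cacna1h and Cacna1i are the widest.

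Whether the post-KD value differed between regions was tested as an interaction over 40 libraries with a term for each cohort. By this test 0 of 10 members passed after adjustment (edgeR, 19422 genes, 0.0154% of all genes called) and 0 of 10 had an unadjusted p under 0.05 (2.22% of all genes), and DESeq2 gave 0 and 0, where 4.07% of all genes passed without adjustment. The smallest p-values were those of Cacna1c, with a difference of -0.82 in log2 fold change (SE 0.44, p = 0.0725 in edgeR), and of Cacna1a, with a difference of 0.36 (SE 0.21, p = 0.0838 in edgeR). Both 95% intervals included 0 (-1.68 to 0.03 and -0.04 to 0.76).

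Between the regions themselves, 1 of 10 members differed after adjustment, Cacnb4, which was lower in the hippocampus than in the frontal cortex (edgeR with a term for each of 20 cohorts, 19422 genes, 2.85% of all genes called and 1.98% called lower). Cacnb4 spanned 215, 287 and 576 CPM (lowest, median, highest of 20 libraries) in the hippocampus and 301, 399 and 568 CPM in the frontal cortex. The ranges overlapped, and the hippocampus was the lower in 16 of 20 cohorts. The log2 fold change was -0.37 (SE 0.09, 95% interval -0.55 to -0.20), or 0.772-fold, with p = 3.12e-05 and an adjusted p of 0.00230 in edgeR. The adjusted p ranged from 0.000305 to 0.506 over 19 alternatives, with 0.0112 in DESeq2 and 0.0606 in limma-voom. Within post-KD cohorts alone the log2 fold change was -0.44 (adjusted p = 0.0290, edgeR), and within pre-KD cohorts alone it was -0.31 (adjusted p = 0.506, edgeR). The median of all genes in this comparison was -0.17, so Cacnb4 lay 0.21 below it on the log2 scale.

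At an unadjusted p of 0.05, 4 of 10 members differed between regions in edgeR, where 10.9% of all genes did. Besides Cacnb4 these were Cacna1e, Cacna1d and Cacna1i. Cacna1e was at 174, 271 and 355 CPM in the hippocampus and 99.2, 236 and 302 CPM in the frontal cortex, and the hippocampus was the higher in 17 of 20 cohorts. Its log2 fold change was 0.28 (SE 0.10, p = 0.00703, adjusted p = 0.159 in edgeR), and in DESeq2 it passed (0.31, adjusted p = 0.0152, against a range of 0.0152 to 0.701 over 19 alternatives), where 7.67% of the genes with an adjusted p were called. Cacna1d was at 24.9, 71.6 and 137 CPM in the hippocampus and 55.4, 97.0 and 130 CPM in the cortex, and the hippocampus was the lower in 15 of 20 cohorts. Its log2 fold change was -0.45 (SE 0.17, p = 0.00858, adjusted p = 0.178 in edgeR). Cacna1i was at 1.94, 20.5 and 44.3 CPM in the hippocampus and 5.34, 33.0 and 77.8 CPM in the cortex, lower in the hippocampus in 16 of 20 cohorts, with a log2 fold change of -0.70 (SE 0.33, p = 0.0446, adjusted p = 0.436 in edgeR). For Cacna1i the unadjusted p was above 0.05 without any one of replicates 2, 3, 4, 5, 7, 8 and 9 (up to 0.105, without replicate 2) and with RLE size factors (0.0563). The remaining 6 members had log2 fold changes between -0.09 (Cacna1g) and 0.10 (Cacna1h). Of these, Cacna1a and Cacna2d1 were the most closely bounded, at -0.03 (95% interval -0.23 to 0.17) and 0.05 (95% interval -0.12 to 0.23).

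**Figure D4:**
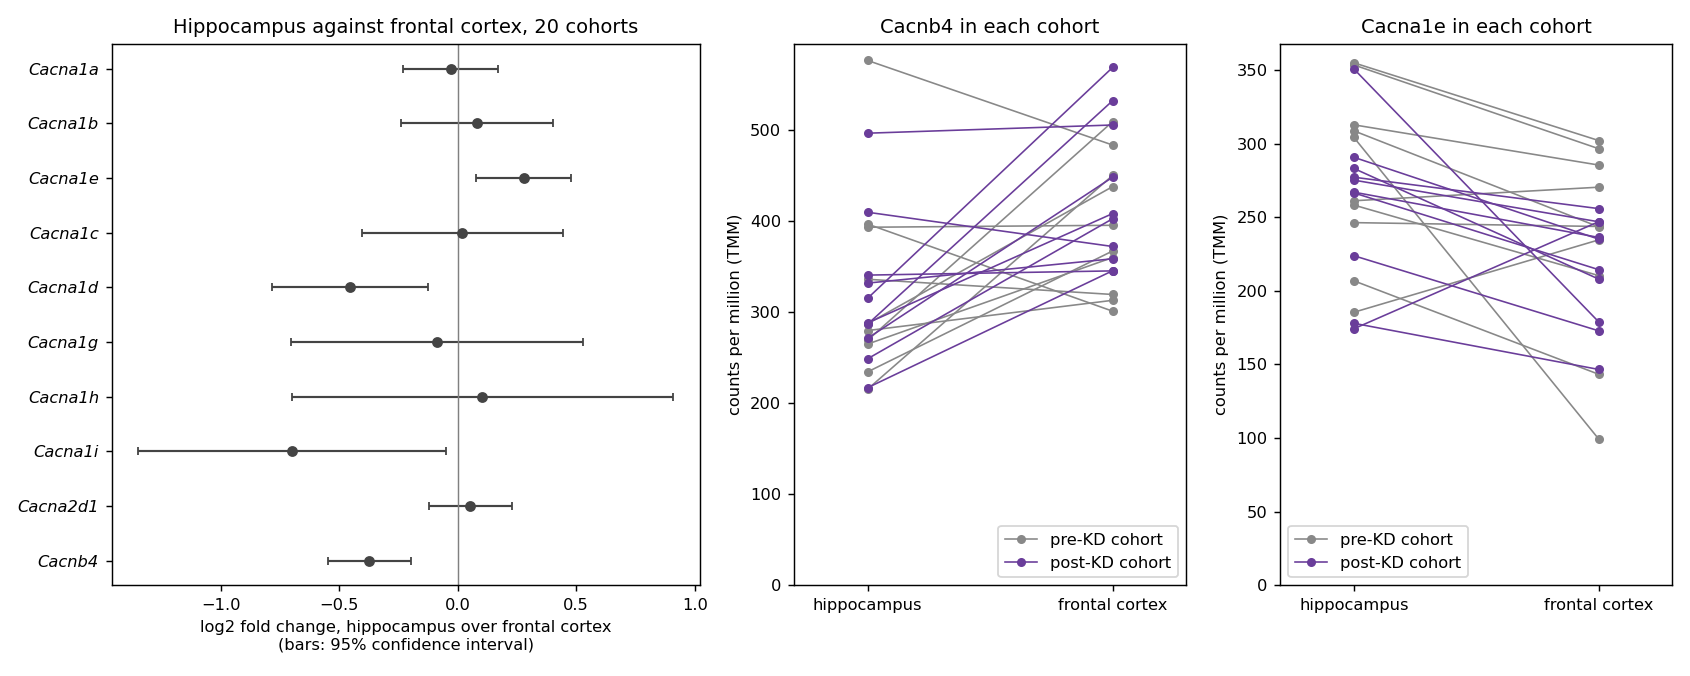
Left, log2 fold change of each subunit, hippocampus over frontal cortex, over 20 cohorts with 95% confidence intervals as bars (edgeR with a term for each cohort). Middle and right, Cacnb4 and Cacna1e in CPM in both regions, with a line joining the libraries of a cohort: Cacnb4 is lower in the hippocampus in 16 of 20 cohorts and Cacna1e higher in 17 of 20.

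Tissue markers also differed between the regions, in both directions. Of 7 striatal markers 6 could be tested, and 6 of 6 were lower in the hippocampus after adjustment in edgeR, where 2.85% of all genes were called. Their summed level was 24.9 to 280 CPM against 409 to 895 CPM in the frontal cortex. Drd2, the marker not tested, had too few counts in both regions, with 0 in the hippocampus and in post-KD frontal cortex. Of 10 choroid plexus markers, 7 were higher in the hippocampus, with a summed level of 732 to 5611 CPM against 131 to 889 CPM. Of 6 inhibitory neuron markers, 2 (Gad1 and Gad2) were lower in the hippocampus, with a summed level of 453 to 745 CPM against 642 to 831 CPM. Of 5 excitatory neuron markers 2 (Neurod2 and Neurod6) were higher. The part of these tissues and cells in the difference of Cacnb4 was not tested. The regions were also deposited as separate tables, so region and any difference in handling between the tables cannot be told apart. Between post-KD and pre-KD libraries, 0 of 75 marker genes in the hippocampus and 0 of 74 in the frontal cortex passed after adjustment in edgeR, DESeq2 or limma-voom, and at an unadjusted p of 0.05 edgeR had 5 in each (10.1% and 9.68% of all genes), DESeq2 5 and 3 (2.71% and 3.48%), and limma-voom 8 and 4 (5.49% and 5.99%).

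Read as a composition on the scale per kb, most of the alpha1 mRNA of both regions was that of the P/Q-, N- and R-type pores. Cacna1a, Cacna1b and Cacna1e together made up 73.3% ± 6.75 (SD, n = 20) of the summed alpha1 level per kb in the hippocampus and 68.7% ± 4.12 in the cortex. Cacna1a alone made up 38.2% ± 7.49 and 38.5% ± 4.31, or 30.9% ± 6.15 and 32.0% ± 3.54 in CPM without length, where Cacna1e made up 33.6% ± 5.06 and 28.5% ± 3.96. The L-type pores held 14.3% ± 4.35 in the hippocampus and 17.7% ± 4.19 in the cortex, and most of that was Cacna1d (9.90% ± 3.44 and 13.4% ± 4.19). The T-type pores held 12.4% ± 5.94 and 13.6% ± 3.10. In every class the regions differed by less than the larger of their SDs. By donor time point, the Cacna1a share was 35.0% ± 7.78 (n = 10) in pre-KD and 41.5% ± 5.82 in post-KD hippocampus, and 38.9% ± 4.85 and 38.2% ± 3.93 in the cortex, and the T-type share was 13.9% ± 6.30 and 10.9% ± 5.46 in the hippocampus and 13.8% ± 2.102 and 13.3% ± 3.96 in the cortex. These shares are descriptions of the 8 listed genes and were not tested.

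**Figure D5:**
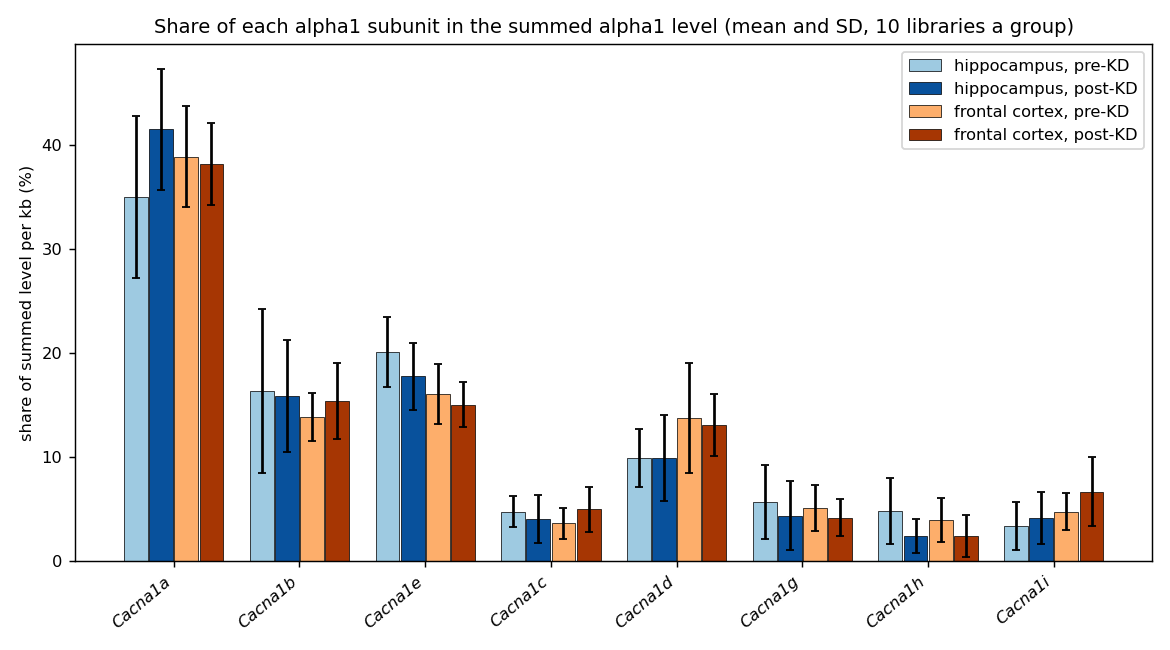
Share of each alpha1 subunit in the summed alpha1 level per kb of exon, in percent, as the mean (bar) and SD (line) of 10 libraries in each region and condition. Cacna1a has the largest mean share in all 4 groups, between 35.0% and 41.5%, and the SD lines of pre-KD and post-KD overlap for every subunit.

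The spread between libraries exceeded counting error for all 10 members in each of the 4 groups. For Cacnb4 in the hippocampus the coefficient of variation over 20 libraries was 28.7%, while counting alone at its mean count gives 4.49%. For Cacna1g in the same region the values were 70.02% and 14.8%. The smallest excess was that of Cacna2d1 in pre-KD frontal cortex, at 5.03% against 4.17%. The library of replicate 1 in pre-KD frontal cortex stood apart for part of the family: it was the lowest of its group for Cacna1a (116 CPM against 195 to 376 in the other 9), Cacna1b (53.9 against 54.3 to 107), Cacna1e (99.2 against 143 to 302), Cacna1c (4.68 against 32.1 to 66.5) and Cacna1g (0.781 against 16.96 to 47.7). It was the highest for Cacna1h (31.2 against 15.7 to 26.0), and within the range of the others for Cacna1i (13.3 against 9.66 to 38.7), Cacna2d1 (338 against 332 to 385), Cacnb4 (449.7 against 301 to 509) and Cacna1d (115 against 63.8 to 115). Without replicate 1, 0 of 10 members passed after adjustment in the frontal cortex, and 1 of 10 passed between regions.

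The other subunits of the family ranged from no counts to levels above several members, each here in CPM without length. The retinal pore Cacna1f had 0 counts in all 40 libraries, which allows up to 3 counts over them, and the muscle pore Cacna1s had 10 counts, all in 1 frontal cortical library. Of the beta subunits, Cacnb1 was at 102 ± 37.6 CPM (SD, n = 20) in the hippocampus and 126 ± 40.02 in the cortex, Cacnb2 at 56.5 ± 24.0 and 55.2 ± 20.9, and Cacnb3 at 115 ± 38.9 and 126 ± 39.5, and 0 of 3 passed any comparison in edgeR. Cacnb2 is among the frontal cortical genes that the study selected on these libraries, and its log2 fold change post-KD was 0.11 (SE 0.24) there. Of the alpha2delta subunits, Cacna2d2 was lower in the hippocampus, at 40.8 ± 22.4 CPM against 82.9 ± 33.1 in the frontal cortex (log2 fold change -1.15, SE 0.20, adjusted p = 6.49e-06 in edgeR), whereas Cacna2d3 was at 49.4 ± 23.0 and 66.2 ± 15.9 CPM (-0.53, SE 0.21, adjusted p = 0.224 in edgeR). Cacna2d4 had 10 counts over the hippocampal and 76 over the cortical libraries.

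Genes that act with the channels were counted from lists of gamma subunits, regulators, release site partners and calcium-activated potassium channels. Over these and the other subunits, 42 genes in all, 0 of 39 tested in the hippocampus and 0 of 40 in the frontal cortex passed post-KD against pre-KD in edgeR, DESeq2 or limma-voom, and before adjustment 2 and 3 had p under 0.05 in edgeR (10.1% and 9.68% of all genes), 2 and 2 in DESeq2 (2.71% and 3.48%) and 3 and 4 in limma-voom (5.49% and 5.99%). In edgeR the 2 in the hippocampus were Kcnma1 (p = 0.0467) and Cacna2d4 (p = 0.00597), whose 10 counts there all came from 1 library. The 3 in the frontal cortex were Camk2a (log2 fold change -0.20, p = 0.00818), Calm3 (-0.22, p = 0.0171) and Cacna1s (p = 0.00707), the last also with 10 counts in 1 library. Between regions 6 of 40 passed in edgeR, all lower in the hippocampus (2.85% of all genes passed and 1.98% were lower), 11 in DESeq2 (7.67% of the genes with an adjusted p) and 7 in limma-voom (2.65%). The median over the 40 genes was -0.31, beside -0.17 for all genes tested.

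Gamma subunits of the stargazin family, which mainly escort AMPA receptors to the synapse, held 3 of those 6. Cacng2 (stargazin) was at 130 ± 43.3 CPM in the hippocampus and 168 ± 37.4 in the cortex (log2 fold change -0.42, SE 0.13, adjusted p = 0.0454 in edgeR). Cacng3 was at 44.1 ± 25.7 and 70.8 ± 30.9 CPM (-0.84, SE 0.21), and Cacng4 at 22.8 ± 12.9 and 44.8 ± 15.2 CPM (-1.13, SE 0.28), so 3 of 7 tested gamma subunits were lower in the hippocampus and 0 higher. Among 13 regulators only Cabp1, a calmodulin-like protein that binds alpha1 subunits, passed, at 84.7 ± 35.5 and 137 ± 34.2 CPM (log2 fold change -0.76, SE 0.14, adjusted p = 4.11e-05 in edgeR). Among 8 release site partners only Rims2, an active zone scaffold that tethers release channels, passed, at 72.1 ± 25.0 and 101 ± 26.2 CPM (log2 fold change -0.54, SE 0.16, adjusted p = 0.0483 in edgeR). Of 5 calcium-activated potassium channel genes, which repolarize the cell after calcium entry, 0 passed in any comparison in edgeR, while 2 tests had an unadjusted p under 0.05 in edgeR, of Kcnma1 in post-KD against pre-KD hippocampus (log2 fold change 0.31, SE 0.15, p = 0.0467) and of Kcnn2 between regions (0.82, SE 0.32, p = 0.0143), both named after their values were seen. Between regions 17 of the 40 list genes had such a p in edgeR, where 10.9% of all genes did.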

How the data were processed

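The authors deposited 1 table of unnormalized read counts per region, each with 47643 Ensembl genes and 20 libraries; per the labels and methods, total RNA was made into TruSeq libraries, aligned to mm10 with STAR 2.5.2a and counted with HTSeq 0.6.0. The study's lists of reagents and software also name the QuantSeq FWD kit, which reads transcript ends, and HISAT2, without saying for which samples, so levels per length rest on the TruSeq label. The annotation release and the strand setting are not given in the sources used here, so overlapping genes on opposite strands may share reads. Symbols and lengths came from GENCODE M21 (47224 identifiers matched, 419 not), with the exons of all transcripts merged. All 40 columns were used, 0 columns were left out, and 0 of 180 library pairs within groups were identical.

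The test was the quasi-likelihood one of edgeR 4.0.16 (R 4.3.3, TMM), on genes that reached 10 counts in all over its libraries, with Benjamini-Hochberg adjustment over all genes. Post-KD against pre-KD was fitted per region without a block, and regions with a term for each cohort, since both regions come from the same cohorts. Standard errors and 95% intervals come from the fitted weights. The procedure was also run on simulated counts, whose outcome is not given here. Alternatives were DESeq2 1.42.0, limma-voom 3.58.1, RLE size factors, no filter, filterByExpr, Gm42418 left out, a Y-linked covariate, a replicate block by donor, pre-KD or post-KD cohorts only, each donor left out and, for levels, another length and (chosen after seeing the data) none. In post-KD against pre-KD, limma-voom was run with quality weights for the libraries, and between regions without them.

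The donor numbers mark stool of the same child. After removing group means, a donor's pre-KD library and post-KD library correlated across genes at -0.028 to 0.0299 in the hippocampus and -0.0561 to 0.0313 in the frontal cortex (10 pairs each, 0 above 0.1), and the regions of a cohort at -0.0238 to 0.201 (1 of 20 above 0.1). Members and gene lists were chosen with earlier results of these data known. Every member was named, with genes of the lists past an adjusted p of 0.05 (at most 8 per comparison), the remaining alpha1, alpha2delta and beta subunits, and extremes of marker lists. List genes under an unadjusted p of 0.05 in edgeR, post-KD against pre-KD, and Kcnn2 were added after their values were seen. Counts range from 1140756 to 2095352 per library, and intervals cover only the spread between pools.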

Additional observations from a re-analysis of the deposited data

Results flagged for a closer look

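In 3 of 40 sets (10 members in 4 groups of 10 libraries), 1 library lay far from the others by Dixon's criterion, where chance gives about 1 in 20 sets. All 3 were highest values in the pre-KD hippocampus, from different donors. Cacna1b was at 225 CPM (309 counts) in replicate 5, against 104 CPM in the next library. Cacna1g was at 81.9 CPM (142 counts) in replicate 6, against 38.7 CPM in the next. Cacnb4 was at 576 CPM (905 counts) in replicate 9, against 396 CPM in the next.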

How the results depend on the processing

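The number of members called after adjustment was 0 in both post-KD comparisons and in the difference between regions under every alternative run. Between regions it was 1 (Cacnb4) except for 2 in DESeq2 with the cohort term (Cacna1e added), 0 in limma-voom, where Cacnb4 had an adjusted p of 0.0606, and 0 with pre-KD cohorts only, where it had 0.506. The cause of these changes was not tested. At an unadjusted p of 0.05 the hippocampal count was 1 in DESeq2 (2.71% of all genes passed), with RLE size factors (10.2%), with filterByExpr (2.32%) and with the replicate block in edgeR (1.99%) or DESeq2 (4.42%), the cortical count was 1 with the replicate block in DESeq2 (5.04%), and the regional count was 1 with post-KD (7.89%) and 2 with pre-KD cohorts only (6.83%). With RLE size factors Cacna1i was lost between regions (10.5% of all genes passed). Leaving out 1 donor gave 0 to 1 in the hippocampus (9.44% to 10.2% of all genes), 0 to 1 in the frontal cortex (8.92% to 9.74%), 3 to 4 between regions (9.69% to 11.2%, with Cacna1i lost in 7 of 10 fits) and 0 to 2 for the difference between regions (2.02% to 2.45%). The replicate block, which pairs the libraries by donor, changed no other call of a member.

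Signs reversed only for estimates near 0 or within their error. In post-KD hippocampus these were Cacna1b with Gm42418 left out (-0.00054) and without a filter (-0.00095), Cacnb4 with the replicate block in DESeq2 (0.011), and Cacna1d (-0.041), Cacna2d1 (-0.014) and Cacnb4 (0.11) in limma-voom, as was Cacna1d in the frontal cortex (0.050). Between regions they were Cacna1a in DESeq2 (0.0041), with RLE (0.0037) and in post-KD cohorts (0.15), Cacna1c in post-KD cohorts (-0.41), Cacna2d1 in pre-KD cohorts (-0.025), and Cacna1g in limma-voom (0.12), without the replicate block (0.091) and in pre-KD cohorts (0.075). For the difference between regions they were Cacna1e (0.011) and Cacna1g (0.087) without the replicate block. Estimates of at least 0.1 that kept their sign and moved by over 1.5 times were, in limma-voom, Cacna1a (0.15), Cacna1g (-0.37) and Cacna1i (0.22) in post-KD hippocampus, Cacna1g (-0.17) and Cacna1i (0.30) in the cortex and Cacna1h between regions (0.22, and 0.16 without the replicate block). With the replicate block in edgeR they were Cacna1c (-0.34) and Cacna1g (-0.40) in the hippocampus and Cacna1h (-0.94) in the cortex, with -0.32, -0.39, -0.93 and cortical Cacna1e (-0.078) in DESeq2.

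With 1 donor left out, 18 of 40 log2 fold changes crossed 0 and 15 moved by over 1.5 times with the same sign, none of them called. Of those that crossed 0, post-KD hippocampal values were -0.15 to 0.23 for Cacna1b, -0.0097 to 0.23 for Cacna1d, -0.42 to 0.19 for Cacna1g and -0.080 to 0.12 for Cacnb4. Cortical values were -0.12 to 0.055 for Cacna1a, -0.082 to 0.076 for Cacna1d and -0.082 to 0.0050 for Cacna2d1. Between regions they were -0.10 to 0.034 for Cacna1a, -0.018 to 0.15 for Cacna1b, -0.13 to 0.14 for Cacna1c, -0.17 to 0.012 for Cacna1g and -0.038 to 0.28 for Cacna1h. For the difference between regions they were -0.22 to 0.064 for Cacna1b, -0.11 to 0.24 for Cacna1d, -0.12 to 0.12 for Cacna1e, -0.83 to 0.095 for Cacna1g, -0.34 to 0.32 for Cacna1h and -0.27 to 0.40 for Cacna1i. Of those that kept their sign, the post-KD hippocampal values were -0.18 to -0.024 for Cacna1e, -0.30 to -0.025 for Cacna1c, -1.15 to -0.53 for Cacna1h, 0.20 to 0.73 for Cacna1i and 0.050 to 0.16 for Cacna2d1. The cortical ones were 0.062 to 0.28 for Cacna1b, -0.24 to -0.044 for Cacna1e, 0.17 to 0.50 for Cacna1c, -0.47 to -0.15 for Cacna1g, -0.97 to -0.40 for Cacna1h, 0.30 to 0.65 for Cacna1i and 0.051 to 0.20 for Cacnb4. Between regions this was Cacna2d1 (0.018 to 0.10), and for the difference between regions Cacna2d1 (0.062 to 0.23) and Cacnb4 (-0.21 to -0.021).

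Over all genes, the hippocampal count after adjustment was 1, with 1291 without a filter on low counts and 0 in DESeq2, with filterByExpr, with the replicate block in edgeR or DESeq2, and without replicate 4 or 9. The cortical count was 1 to 12, the highest with the replicate block in DESeq2. Between regions it was 554, with 1026 in DESeq2, 1935 without the replicate block, 193 with pre-KD and 251 with post-KD cohorts only, and the interaction had 3, with 348 without the replicate block, 0 in DESeq2 and 2 to 4 with 1 donor left out. Of 16 alpha1 shares (8 genes in 2 regions), 0 moved by over 1 SD with Gm42418 left out and 3 with the longest transcript as the length, to 23.2% and 19.3% for Cacna1e in hippocampus and cortex, while the cortical share of Cacna1b fell by 3.65 percentage points. Without length scaling, chosen after seeing the data, 6 did, and by class the cortical T-type share went from 13.6% to 9.85%, while the other class shares moved by less than 1 SD. The T-type genes had under 10 counts in some libraries, and a change of the size of the post-KD estimate of Cacna1h was within the error.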
